A study of Mus musculus with 4 samples.

Results

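MHC class I molecules show peptides from inside the cell to CD8 T cells and NK cells, and 10 genes of this pathway were followed here across the immune cells of the challenged mouse oesophagus. They were chosen by name: the heavy chains H2-K1, H2-D1 and H2-T23, the light chain B2m, the peptide-loading genes Tap1, Tap2 and Tapbp, and the immunoproteasome subunits Psmb8, Psmb9 and Psmb10. All 10 were found among the 32285 genes of the UMI table. UMIs (unique molecular identifiers) count captured transcripts once each.

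In the pathway, the proteasome cuts cytosolic proteins, the Tap1 and Tap2 transporter carries the peptides into the endoplasmic reticulum, and tapasin (Tapbp) helps to load them onto a heavy chain paired with B2m. Interferons raise the whole pathway, and the immunoproteasome subunits then replace the constitutive catalytic subunits Psmb5, Psmb6 and Psmb7 and change which peptides are cut. Type 1 conventional dendritic cells (cDC1) are known for presenting taken-up antigen on MHC class I to CD8 T cells.

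The study profiled esophageal CD45+ cells of 5 Il20rb-/- (KO) mice and 5 wild-type (WT) mice by 3′ single-cell RNA sequencing. Il20rb encodes a receptor subunit for cytokines of the IL-20 family. Both genotypes received the same model of eosinophilic esophagitis: 1 nmol of the vitamin D analogue MC903 (calcipotriol) with ovalbumin (OVA) at 5 mg/mL on the ear each day for 14 days, OVA at 1.5 g per litre in the drinking water from day 14, a 50 mg OVA gavage on days 15 and 17, and collection on day 18. Untreated animals were not analysed here, and strain, sex and age were not given in the sources used here, so levels stand for challenged tissue only. Each animal carried its own hashtag antibody, all suspensions were pooled before the sort, and the pool ran in 2 wells, so well and sort were shared by both genotypes.

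The table held 2633 KO cells and 3421 WT cells, with 1805883 to 5666994 UMIs in a KO animal and 2884534 to 5113431 in a WT animal. Il20rb itself had 6 UMIs in KO cells and 10 in WT cells, too few to check the genotype labels. Cell types were rebuilt from clusters made without the 10 genes and without other class I and interferon-response genes, 49 genes in all. They were named "-like" from marker lists. Interferon-response genes outside these 49 were not left out. Between lineages, sums per animal were compared for neutrophil-like, monocyte-like, macrophage-like, cDC2-like, cDC1-like, migratory DC-like, cycling, ILC2-like (type 2 innate lymphoid) and T-like cells. The 9 clusters that could not be named, with 1127 cells (18.6%), stayed out. The 2 wells shared 2 cell barcodes. Animal WT1 stood apart from the other WT animals in several lineages: it held 317 of the 467 WT neutrophil-like cells, and the summed type I interferon response genes of its macrophage-like cells reached 3579 CPM (UMI counts scaled to a common library total, here with edgeR's TMM factors), against 349 to 992 CPM in WT2 to WT5. KO1 (4423 CPM), KO4 (2612 CPM) and KO5 (5938 CPM) were likewise high and KO2 (764 CPM) and KO3 (228 CPM) low, so the ranges of the genotypes overlapped. For that reason the log2 folds of each lineage in which WT1 was tested are also given without it, apart from those of neutrophil-like cells.

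The heavy chains and the processing genes were not highest in the same cells. H2-K1, a classical heavy chain, averaged 2618 ± 341 CPM in ILC2-like cells and 2360 ± 452 in T-like cells (SD, n = 9 animals each), against 513 ± 98.1 in cDC1-like cells (n = 9). These levels are plain CPM, CPM without the TMM scaling, taken over the UMIs of that animal's cells of the lineage. The lowest, median and highest animal had 2169, 2697 and 3144 CPM in ILC2-like cells, and 408, 493 and 685 CPM in cDC1-like cells. ILC2-like cells were above cDC1-like cells in 8 of the 8 animals that had enough of both. H2-K1 passed the lineage test (edgeR quasi-likelihood test, each lineage against the equal-weight mean of the others) as higher in ILC2-like cells (log2 1.11 ± 0.14, adjusted p = 2.81e-10) and lower in cDC1-like cells (-1.30 ± 0.17, adjusted p = 2.56e-09). In order below T-like cells stood migratory DC-like (1771 CPM), macrophage-like (1094), neutrophil-like (1089), cycling (960), monocyte-like (954) and cDC2-like cells (796). Counted as UMIs per cell rather than as CPM, the gap between ILC2-like and cDC1-like cells was narrower, 9.38 against 4.06 H2-K1 UMIs, since the median cDC1-like cell held 7885 UMIs and the median ILC2-like cell 3283.

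H2-D1, the second classical heavy chain measured, had the same lowest lineage. It averaged 971 ± 177 CPM in cDC1-like cells, against 2448 ± 341 CPM in ILC2-like and 2443 ± 397 CPM in migratory DC-like cells (n = 5). Its order then ran from neutrophil-like (2219) through T-like (1901), macrophage-like (1669), cDC2-like (1583) and monocyte-like (1511) to cycling cells (1382). The light chain B2m, which every class I molecule needs, was also lowest in cDC1-like cells, at 939 ± 142 CPM. B2m had its highest mean in neutrophil-like cells at 3173 ± 1729 CPM (n = 7), followed by ILC2-like (2773), migratory DC-like (2701), monocyte-like (2648), macrophage-like (2451), T-like (2362), cDC2-like (1312) and cycling cells (1212). Means of different lineages rest on partly different animals. Within the 7 animals with both, ILC2-like cells had more B2m than neutrophil-like cells in 4. Counted as UMIs per cell, neutrophil-like cells were instead lowest for B2m (5.93, against 7.5 in cDC1-like and 19.7 in migratory DC-like cells). They were also below cDC1-like cells for H2-K1 (2 against 4.06) and H2-D1 (4.03 against 7.71). T-like cells had 6.71 H2-D1 UMIs per cell. The lowest and highest lineages given here are thus those on CPM. In cDC1-like cells B2m (-1.13) and H2-D1 (-0.85) both passed as lower. H2-T23 encodes Qa-1, a non-classical molecule read by NK receptors, and did not follow the classical chains: it was highest in monocyte-like cells (393 ± 135 CPM, n = 9), lowest in cycling cells (175 ± 24.2 CPM, n = 6), and 302.9 ± 90.4 CPM in cDC1-like cells. The other lineages lay between 253 CPM (cDC2-like) and 345 CPM (ILC2-like).

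H2-K1 and H2-D1 are close copies, and their upstream sequences show how close. The stretches below lie upstream of a RefSeq start site, on the gene's own strand (GRCm38.p6), and have the 9 bases GGGATTCCC in capitals, a κB-type motif that NF-κB proteins bind. Their places are chr17:34000389-34000497 (minus strand, inside the longest annotated span of H2-K1, which has more than 1 start site) and chr17:35262884-35262992 (plus strand, outside H2-D1).
H2-K1: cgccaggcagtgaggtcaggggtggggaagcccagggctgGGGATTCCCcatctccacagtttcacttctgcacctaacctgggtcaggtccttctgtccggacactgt
H2-D1: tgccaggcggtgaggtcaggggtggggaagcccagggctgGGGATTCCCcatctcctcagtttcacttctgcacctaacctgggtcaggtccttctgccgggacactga
The stretches were identical at 103 of 109 positions (94.5%). On either strand, GGGATTCCC occurs in 0.353% of the 32851 promoter windows of the table, and among the 9 members with a window (Tap2 has none) in H2-K1 and H2-D1. Reads of such close copies can be assigned to one or the other, so the split between H2-K1, H2-D1 and the other H2 genes carries that uncertainty. H2-T23, B2m and Tapbp also overlap another annotated gene each (A930015D03Rik, Patl2 and Gm19412).

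B2m and H2-T23 carried a different motif. The interferon regulatory factor pattern (GAAA, any 2 bases, GAAA, either strand) is found in 3.44% of the windows, and among members in these 2. It is in capitals below, at chr2:122147518-122147587 (plus strand) and chr17:36032786-36032855 (minus strand, where the pattern lies on the opposite strand).
B2m: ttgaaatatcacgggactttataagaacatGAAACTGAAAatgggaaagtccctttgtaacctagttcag
H2-T23: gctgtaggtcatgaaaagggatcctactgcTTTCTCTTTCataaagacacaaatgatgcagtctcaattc
These are matches of letters in one window, not measured binding. Variants of the pattern were not searched, so members without a match, H2-K1 and H2-D1 included, are not shown to lack an interferon element.

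The peptide transporter genes had another order than the heavy chains. Tap1 averaged 210 ± 26.2 CPM in migratory DC-like, 207 ± 84.9 in monocyte-like, 157 ± 48.2 in cDC1-like, 154 ± 136 in neutrophil-like and 133 ± 57.6 in T-like cells. It was lowest in ILC2-like cells at 66.6 ± 26.7 CPM, below cycling (117), cDC2-like (103) and macrophage-like cells (92.4). ILC2-like cells, which had the most H2-K1 by CPM, thus had the least Tap1, and both passed the test (Tap1 log2 -1.25 ± 0.25, adjusted p = 1.82e-05). Tap2 had the lowest counts of the 10 genes, with 2333 UMIs in all cells. Its means were 129 CPM in migratory DC-like, 121 in T-like, 110 in cDC1-like, 96.4 in neutrophil-like, 86.2 in ILC2-like, 72.1 in monocyte-like, 57.4 in cDC2-like, 56.1 in macrophage-like and 44.8 in cycling cells. Tapbp, the loading chaperone, was highest in monocyte-like cells (367 ± 102 CPM) and lowest in cycling cells (144 ± 27.3 CPM). Tapbp means elsewhere were 305.7 CPM in neutrophil-like, 292 in migratory DC-like, 275 in ILC2-like, 232 in macrophage-like, 225 in cDC1-like, 197 in T-like and 189 in cDC2-like cells.

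Psmb8 and Psmb9, the immunoproteasome subunits encoded beside the transporter genes, were highest in migratory DC-like and cDC1-like cells. Psmb8 averaged 1244 ± 291 CPM in migratory DC-like and 1074 ± 184 CPM in cDC1-like cells, against 532 ± 108 in cDC2-like, 457 ± 132 in monocyte-like and 302.6 ± 88.3 in macrophage-like cells. Cycling (642), T-like (493) and ILC2-like cells (419) lay between, and neutrophil-like cells were lowest at 259 ± 206 CPM. The lowest, median and highest cDC1-like animal had 787, 997 and 1349 CPM of Psmb8, and the lowest, median and highest macrophage-like animal 212, 275 and 441 CPM. No macrophage-like animal reached the cDC1-like range. In cDC1-like cells Psmb8 passed as higher (log2 1.20 ± 0.13, adjusted p = 2.49e-12), and in macrophage-like cells as lower (0.50-fold, adjusted p = 4.89e-09).

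Psmb9 averaged 603 ± 163 CPM in cDC1-like cells, the highest mean, and 131 ± 87.6 CPM in ILC2-like cells, the lowest. Between them came migratory DC-like (446), cycling (356), monocyte-like (271), T-like (267), cDC2-like (224), neutrophil-like (213) and macrophage-like cells (169). cDC1-like cells were above cDC2-like cells for both Psmb8 and Psmb9 in 9 of 9 animals. Psmb9 passed as higher in cDC1-like cells (log2 1.42 ± 0.12, adjusted p = 2.08e-17) and as lower in ILC2-like cells (-1.47 ± 0.18, adjusted p = 1.73e-11). Psmb10, encoded outside the MHC on chromosome 8 (chr8:105935728-105938392), was highest in monocyte-like cells (240 ± 63 CPM) and lowest in neutrophil-like cells (47.7 ± 37.7 CPM). Psmb10 averaged 175 CPM in migratory DC-like, 165 in cDC1-like, 147 in cDC2-like, 144 in macrophage-like, 139 in ILC2-like, 126 in T-like and 102 in cycling cells. The scaling moved part of these orders: on TMM-scaled CPM, neutrophil-like cells were highest for H2-D1 (3032 CPM), H2-T23 (495 CPM), Tap1 (245 CPM), Tap2 and Tapbp (434 CPM), and macrophage-like cells were lowest for Psmb8. For the other 4 genes the highest and the lowest lineage were the same on both scales.

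**Figure D1:**
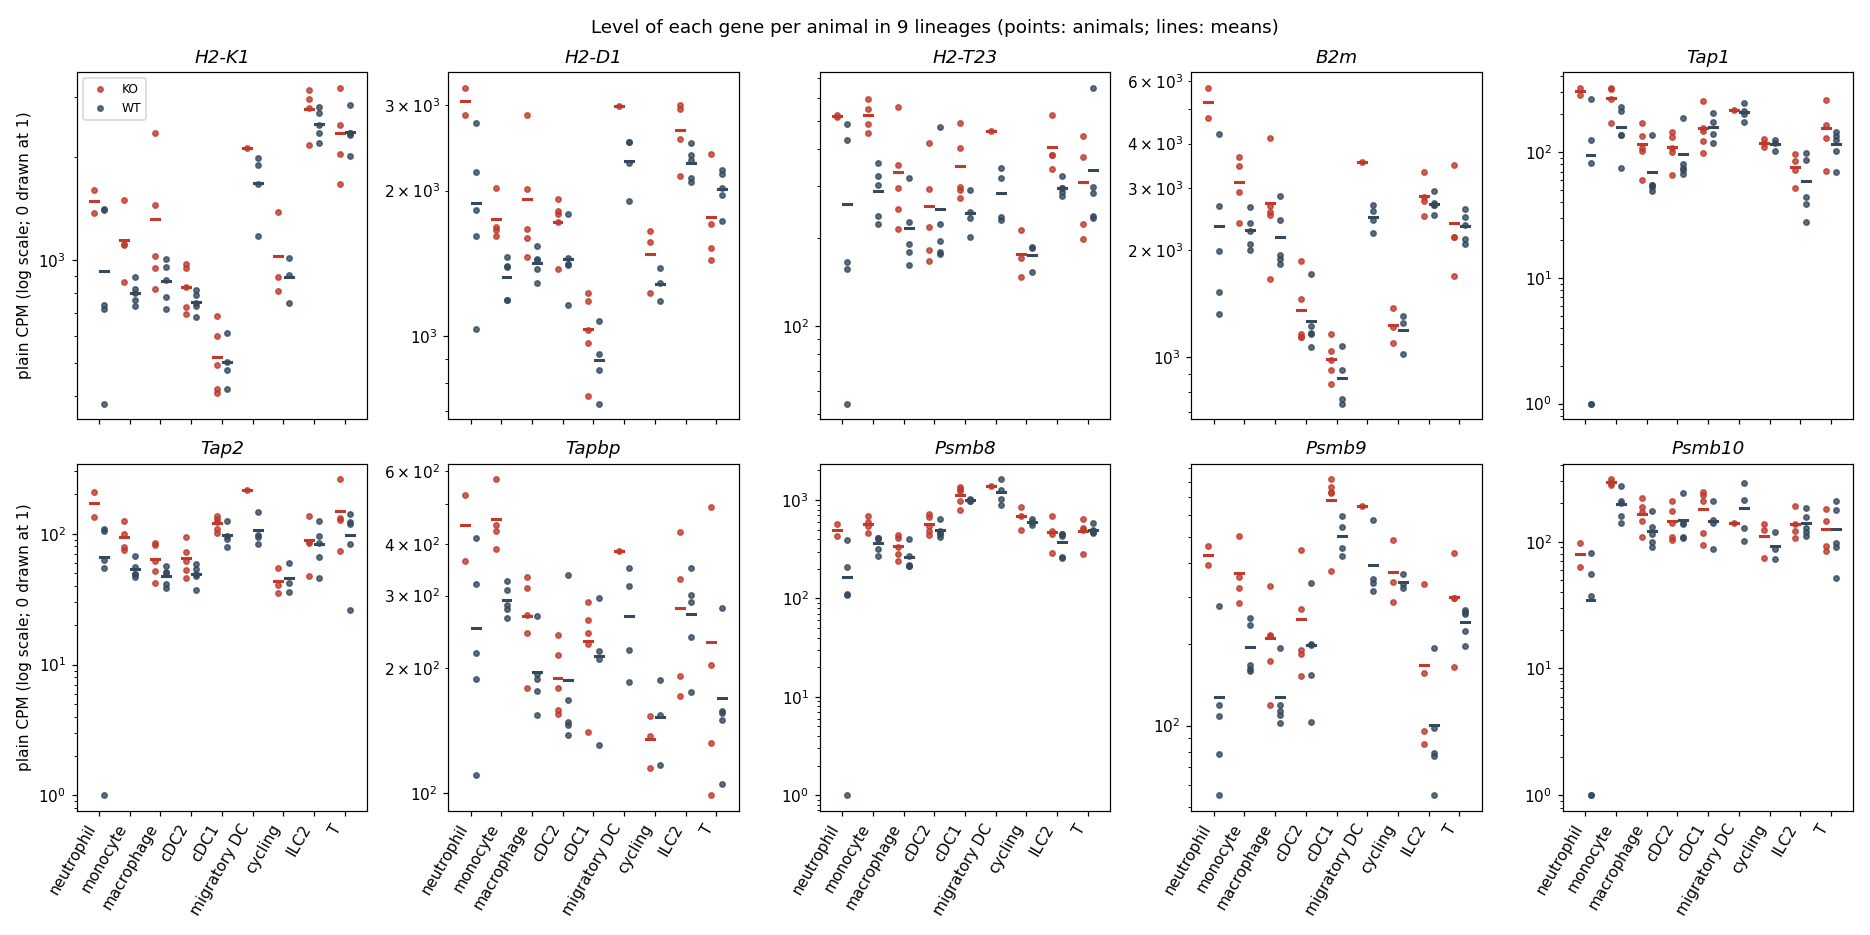
Plain CPM (log axis) of each of the 10 genes in the 9 lineages, with 1 point per animal, KO left of WT, and a line at each genotype's mean. H2-K1 is lowest in cDC1-like cells (513 CPM) and highest in ILC2-like cells (2618 CPM), whereas Psmb9 is highest in cDC1-like cells (603 CPM) and lowest in ILC2-like cells (131 CPM).

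Tap1 and Psmb9 share a short divergent promoter. Their start sites, at 34187556 and 34187330 of chromosome 17, leave 225 bases between them, shown here on the Tap1 strand (RefSeq, GRCm38.p6, chr17:34187331-34187555, plus strand), since the pair is transcribed from it in opposite directions.
Tap1 and Psmb9: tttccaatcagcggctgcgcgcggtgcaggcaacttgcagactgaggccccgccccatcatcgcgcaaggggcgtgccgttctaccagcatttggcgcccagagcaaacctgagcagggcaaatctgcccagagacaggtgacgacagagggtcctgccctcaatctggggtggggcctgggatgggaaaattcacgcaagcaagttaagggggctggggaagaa
None of the 3 patterns searched occurs in these 225 bases, so nothing is in capitals. The remaining pattern, TTCNNNGAA (either strand, in 8.3% of windows), was found among members in the window of Psmb8. Despite the shared stretch, Tap1 and Psmb9 were ordered differently across lineages: in monocyte-like cells Tap1 passed as higher (log2 0.70) and Psmb9 did not pass (-0.06).

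Counted over the 10 genes, the numbers that passed differed between lineages, read here against the share of all 5119 genes tested that passed in the same direction. In migratory DC-like cells 7 genes were higher (17.1% of all genes) and 0 lower (13.9%), and in neutrophil-like cells 7 were higher (32.4%) and 2 lower (38.9%). In cDC1-like cells 4 were higher (25.2%), namely Psmb8, Psmb9, Psmb10 and Tap2, and 3 lower (17.2%), namely B2m, H2-K1 and H2-D1. In ILC2-like cells 3 were higher (30.6%), namely B2m, H2-K1 and H2-D1, and 3 lower (22.9%), namely Psmb8, Psmb9 and Tap1, counts near the shares of all genes. B2m, H2-K1, H2-D1, Psmb8 and Psmb9 thus went the opposite way to cDC1-like cells, whereas Tap2 (log2 0.01) and Psmb10 (-0.10) did not pass. Monocyte-like cells had 5 higher (36.3%) and 1 lower (14.7%). Macrophage-like cells had 0 higher (36.8%) and 4 lower (12.5%), which were Psmb8, Psmb9, Tap1 and Tap2. The 0 depended on the setting. With neutrophil-like cells left out edgeR called B2m higher in macrophage-like cells (log2 0.42, adjusted p = 5.58e-07). Without TMM factors it did so too (0.29, adjusted p = 0.00359). In cDC2-like cells 0 were higher (33.3%) and 7 lower (12.2%), and in cycling cells 1 was higher (29%) and 7 lower (12.5%). T-like cells had 1 higher (29.7%), H2-K1, and 1 lower (20.5%), Tapbp. The TMM factors of neutrophil-like sums ranged from 0.452 to 1.592, against 0.831 to 1.191 elsewhere, and without them H2-K1 (log2 -0.01) and H2-T23 (0.27) were no longer called higher in neutrophil-like cells. The call of B2m in ILC2-like cells was lost in 11 of 17 alternatives, and those of Psmb10, H2-K1 and H2-D1 in cycling cells in 13, 10 and 9, and 6 of the 7 calls in migratory DC-like cells, all but Psmb8, were lost when lineages were gated by marker UMIs. Psmb10 lost its call there in 6 of 15 alternatives, whereas the cDC1-like calls of B2m, H2-K1, H2-D1, Psmb8 and Psmb9 held in all 17.

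Neighbouring lineages in each gene's order were compared within animals, with 2 to 10 animals per pair, where the smallest possible exact p lies between 0.00195 and 0.5. None of 80 neighbouring pairs passed an exact two-sided sign-flip permutation test over animals after adjustment (lowest adjusted p = 0.156 on TMM-scaled CPM and 0.104 on plain CPM), while 11 and 12 pairs had unadjusted p under 0.05. At these numbers a pair that did not pass is not shown to be alike. The lowest exact p of 0.00391 (9 animals, the smallest that number allows) was reached on plain CPM by H2-K1 in cDC2-like over cDC1-like cells, by B2m in T-like over cDC2-like cells and by Psmb8 in ILC2-like over macrophage-like cells.

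Lineages present in few animals are given without spread. B-like cells, counted in WT3 alone (66 cells), had 1164 CPM of H2-K1, 1376 of B2m and 332 of Psmb8. The 18 plasma-like cells of WT3 had 1013 CPM of H2-K1, 1708 of B2m and 266 of Psmb8. NK-like cells, 11 each in KO5 and WT1, had 2470 CPM in KO5 and 2316 CPM in WT1 of H2-K1, so their H2-K1 was near that of ILC2-like and T-like cells.

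Within a lineage the genes also differed between clusters. Among macrophage-like clusters, the one led by Ccl8, Timp1 and Spp1 averaged 2037 CPM of H2-K1 (929 to 3892), 610 of H2-T23 and 385 of Psmb9 (3 animals), whereas the one led by Gpnmb, Spp1 and Apoe averaged 766, 170 and 99.9 CPM of the same genes (7 animals). Among cDC2-like clusters, the one led by Ifitm1 and Clec10a had 786 CPM of Psmb8 and 434 CPM of Psmb9 (4 animals), against 413 and 122 CPM in the one led by Cd209a and Mt2 (9 animals). Among monocyte-like clusters, the one led by Ccl12, Cxcl10 and Ifit2, the last 2 being interferon-response genes, had 574 CPM of H2-T23 and 424 CPM of Psmb9 (4 animals), against 283 and 169 CPM in the one led by Gm9733, Mgst1 and Serpinb2 (7 animals). The Cxcl10 cluster held 107, 18 and 139 cells in KO1, KO4 and KO5, 36 in WT1 and at most 7 in any other animal. Cluster and genotype cannot be told apart in its values. The neutrophil-like cluster led by Retnlg and Mmp9 had 1825 CPM of B2m and 137 CPM of Psmb8 (6 animals), against 5156 and 418 CPM in the cluster led by Csf1, Il1a and Ccl3 (4 animals). These values describe clusters and carry no test.

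Between genotypes, the class I genes were higher on average in KO monocyte-like cells, but no gene of the 10 passed after adjustment over all genes. H2-T23 had 519, 484, 572 and 700.1 TMM-scaled CPM in KO1, KO2, KO4 and KO5, against 356, 228, 212, 369 and 301.6 in WT1 to WT5. Every KO animal stood above every WT animal for H2-T23. Its log2 fold, KO over WT, was 0.91 ± 0.18 (SE), with an edgeR adjusted p of 0.0831. Psmb9 had 406, 281, 335 and 590.4 CPM in the same KO animals, against 273, 157, 159, 242 and 159 in WT1 to WT5. The groups again did not overlap, with KO2 closest to WT1, and the log2 fold was 0.99 ± 0.21 (adjusted p = 0.116). Tapbp had 444, 427, 597 and 524 CPM in KO animals, against 356, 275, 265, 318 and 263 in WT animals (log2 0.70 ± 0.15, adjusted p = 0.117). KO3 had 2 monocyte-like cells and is not in this comparison.

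All 10 genes had a positive log2 fold in monocyte-like cells, from 0.47 (H2-D1) to 0.99 (Psmb9) with a median of 0.72, beside a median of -0.02 over all 3915 genes tested, of which 47.1% were positive. None was called, against 0.0511% of all genes, while 10 of 10 had unadjusted p under 0.05, as did 451 of all genes. KO animals stood wholly above WT animals for 8 of the 10 genes, B2m and Tap1 being the exceptions, and for 2.53% of all genes. On plain CPM 7 genes did so, a scale on which the share of all genes was not taken. DESeq2 called 4 of the 10 genes (H2-T23, Tapbp, Psmb8 and Psmb9, lowest adjusted p = 0.00572), where it called 0.587% of all genes. Without KO2, whose sum came from 20 cells, edgeR called 5 of the 10 and 1.15% of all genes, and when every gene with at least 1 UMI was tested it called 8 of the 10 and 0.92% of all genes. Without WT1 it called none, with a median log2 fold of 0.78 and a lowest adjusted p of 0.0809. Without KO5 it also called none, with a median of 0.64 and a lowest adjusted p of 0.42. Leaving out both KO1 and KO5 gave a median of 0.67 and a lowest adjusted p of 0.482. There 7 of the 10 genes and 202 of all 3900 genes had unadjusted p under 0.05. With clusters made from all genes the lowest adjusted p was 0.256.

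Other measures moved with genotype in these cells. The cluster led by Ccl12 and Cxcl10 made up 29.4, 10, 20.5 and 41.6% of monocyte-like cells in KO1, KO2, KO4 and KO5, against 15.5, 11.7, 6.06, 14.3 and 6% in WT1 to WT5. Without that cluster the 10 folds were as large, with a median of 0.74, 10 positive and a lowest adjusted p of 0.138. The mitochondrial share of UMIs was 1.79 to 2% in KO animals and 2.29 to 2.57% in WT animals, and its part in the result was not tested. The 11 neutrophil markers, all detected, summed to 117 to 233 CPM in KO and 192 to 1344 CPM in WT monocyte-like cells, and their part was not tested either. Of the 8 cDC1 markers 7 were detected (Cadm1 was at 0), and their sum did not overlap, at 160 to 207 CPM in KO and 123 to 152 CPM in WT animals. The 11 monocyte markers summed to 10375 to 15471 CPM in KO and 8316 to 11555 CPM in WT animals, and the pDC markers, of which 3 of 7 were detected, to 748 to 1789 CPM in KO and 434 to 1009 CPM in WT animals. The part of these 3 lists was not tested. Of the epithelial markers 5 of 7 were at 0. The unnamed clusters held 10.8 to 25.9% of the cells of a KO animal and 11.9 to 30.4% of those of a WT animal. Counting all of them as monocyte-like left a median of 0.58 with 2 genes at unadjusted p under 0.05 (lowest adjusted p = 0.867), beside 417 of all 7322 genes tested. With cells gated by marker UMIs, which brought in KO3, the median was 0.61 with 4 such genes, beside 433 of all 5293.

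**Figure D2:**
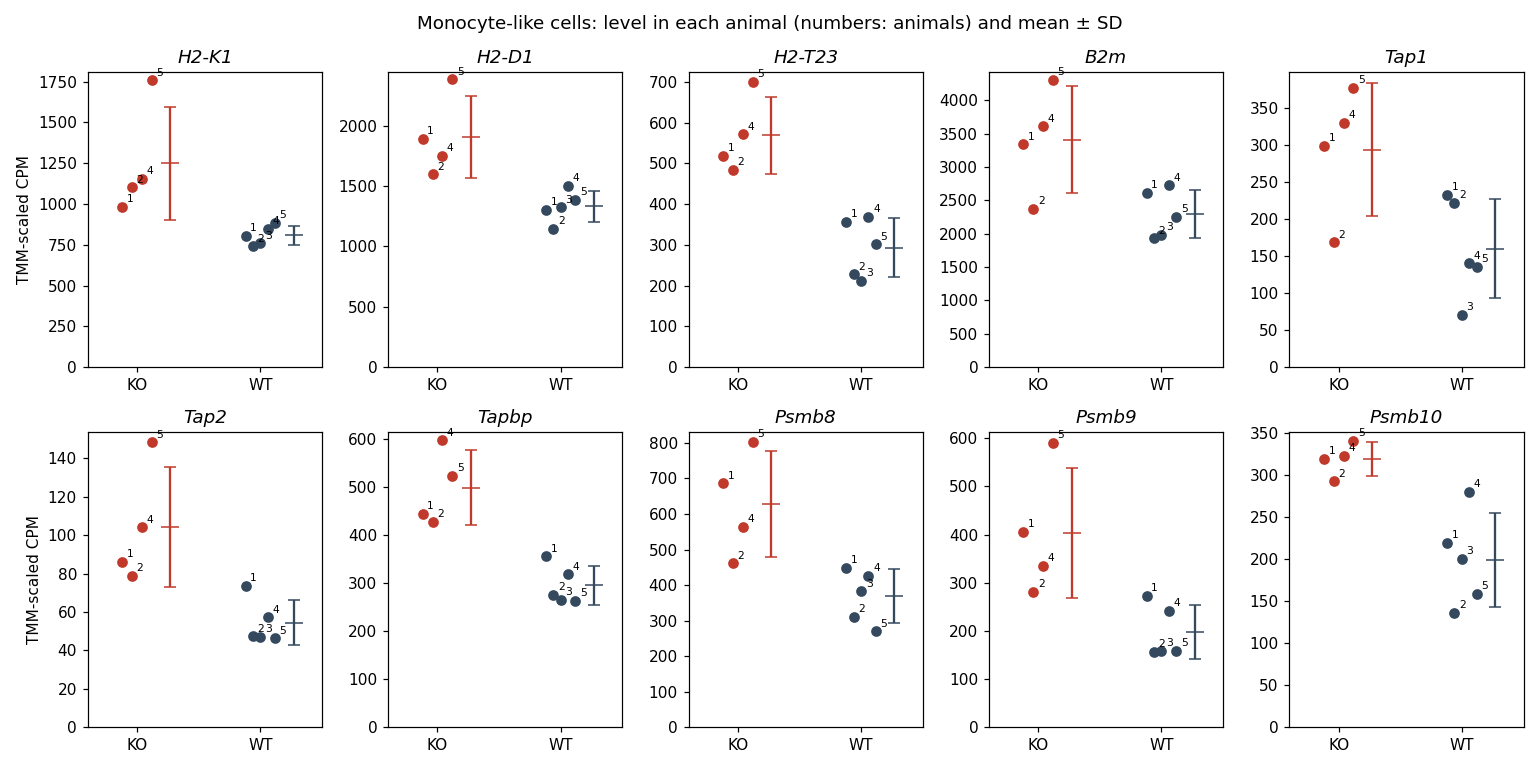
TMM-scaled CPM of the 10 genes in monocyte-like cells of each animal, KO (4 animals) left of WT (5 animals), with the mean ± SD beside the points and animal numbers on them. For H2-T23 the KO animals sit between 484 and 700.1 CPM and the WT animals between 212 and 369 CPM.

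In macrophage-like cells the 10 genes were again all higher in the KO mean, with a median log2 fold of 0.48 (all 5942 genes tested, -0.01), and none was called (0.0673% of all genes). Psmb9, with the lowest unadjusted p, had 219.6, 222, 127, 175 and 338 TMM-scaled CPM in KO1 to KO5, against 200.2, 110.5, 119.98, 117 and 102 in WT1 to WT5 (log2 0.74 ± 0.25, adjusted p = 0.999). H2-D1 had 1628, 2080.3, 1776, 1470.3 and 2939.7 CPM in KO animals, against 1326, 1409, 1458, 1476 and 1532 in WT animals (log2 0.47 ± 0.17). H2-K1 had 967, 1501, 873, 1036 and 2412 CPM in KO animals, against 743, 986, 966, 835 and 869.6 in WT animals (log2 0.63 ± 0.24). KO5 was the highest animal for all 3 genes, and the groups overlapped. KO animals stood wholly above WT animals for 0 of the 10 genes and for 0.252% of all genes. At unadjusted p under 0.05 there were 7 of the 10 genes and 252 of all genes. Without WT1 the median was 0.62 with 9 such genes (418 of 5921 over all genes) and a lowest adjusted p of 0.152. Without KO5 it was 0.35 with 2 such genes (167 of 6228 over all genes).

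In the dendritic, lymphoid and cycling cells the median fitted changes were smaller. DESeq2 called none of the 10 genes in these lineages, in macrophage-like cells or in all CD45+ cells. At unadjusted p under 0.05 edgeR had 2 genes in cDC2-like, 2 in cDC1-like, 0 in cycling, 1 in ILC2-like and 0 in T-like cells. Over all genes tested it had, in that order, 272 of 5744, 109 of 2099, 168 of 4428, 160 of 1617 and 90 of 1118. In cDC2-like cells 10 of 10 were positive with a median of 0.20 and none was called (0.0522% of all genes). H2-D1 had the lowest unadjusted p there, at 1804, 1734, 1840.3, 1352 and 2015 CPM in KO1 to KO5, against 1481, 1135, 1389.9, 1410.3 and 1789.5 in WT1 to WT5 (log2 0.28 ± 0.12, edgeR adjusted p = 1). Tap2 (0.43 ± 0.21) and H2-K1 (0.17 ± 0.11) came next, at 46.6 to 98.6 CPM in KO and 37.1 to 59.7 CPM in WT animals for Tap2, and 684 to 1023 CPM in KO and 684 to 838 CPM in WT animals for H2-K1. WT1 was the highest WT animal for every one of these genes except H2-D1 in cDC2-like cells, and without it the median was 0.37. Without KO5 the median was 0.05 with 6 of 10 positive, and with lineages gated by marker UMIs it was 0.02, also with 6 of 10 positive.

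In cDC1-like cells 9 of 10 were positive with a median of 0.20 and none was called (0.0476%). H2-T23 had 436, 329.9, 284, 300.9 and 529 CPM in KO1 to KO5, against 314, 240.1, 205 and 258 in WT2 to WT5 (log2 0.51 ± 0.20, adjusted p = 0.812). Psmb9 had 826, 809, 389.9, 755 and 878 CPM in KO animals, against 586, 612, 464 and 446 in WT animals (log2 0.43 ± 0.19). KO3 alone lay below the WT animals for Psmb9. H2-D1 came next (0.22 ± 0.14), at 811 to 1283 CPM in KO animals and 767 to 1105 CPM in WT animals.

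In cycling cells, with 3 animals per genotype, 8 of 10 were positive with a median of 0.10 and none was called (0.0452%). H2-D1 (0.24 ± 0.12), H2-K1 (0.25 ± 0.18) and Psmb8 (0.20 ± 0.17) had the lowest p. H2-D1 had 1563, 1476 and 1136 CPM in KO2, KO3 and KO4, against 1093, 1292 and 1212 in WT2, WT3 and WT4. H2-K1 had 848, 1302 and 755 CPM in those KO animals, against 939, 846 and 706 in those WT animals, and Psmb8 had 657, 469.96 and 797 CPM in KO, against 597, 558 and 528 in WT. All 3 genes overlapped between genotypes.

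In ILC2-like cells 8 genes had enough counts (Tap1 and Tap2 did not), 6 of them were positive with a median of 0.18, and none was called (0.309%). H2-T23 had 356, 355, 290.4 and 445 CPM in KO1, KO2, KO4 and KO5, against 296, 280.4, 261, 272 and 274 in WT1 to WT5 (log2 0.45 ± 0.19, adjusted p = 0.447). H2-D1 (0.23 ± 0.14) lay between 1815 and 2749 CPM in KO and between 1939 and 2289 CPM in WT animals, and Psmb9 (0.61 ± 0.42) between 72.6 and 283 CPM in KO and between 54.3 and 179 CPM in WT animals. Without WT1 the median was 0.10, with 7 of 7 tested genes positive, and with every gene with at least 1 UMI tested it was -0.01, with 5 of 10 positive. In T-like cells 9 genes were tested (not Tap2), 6 were positive with a median of 0.05, and none was called (0%). H2-D1 had the lowest p there and a negative fold, with 1284, 1364, 1513 and 1997 CPM in KO1, KO2, KO3 and KO5, against 1999.8, 1703, 1558, 1923 and 1754.5 in WT1 to WT5 (log2 -0.17 ± 0.15, adjusted p = 0.869). Tap1 (0.40 ± 0.39) ranged from 63.1 to 219 CPM in KO and 61.6 to 125 CPM in WT animals, and Psmb9 (0.28 ± 0.28) from 148 to 365 CPM in KO and 171 to 244 CPM in WT animals. The median in T-like cells had no stable sign: it was 0.07 without WT1, -0.17 without KO5 (4 of 10 positive), -0.15 with every gene with at least 1 UMI tested and -0.15 without the cells of highest doublet score (3 of 10 positive).

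**Figure D3:**
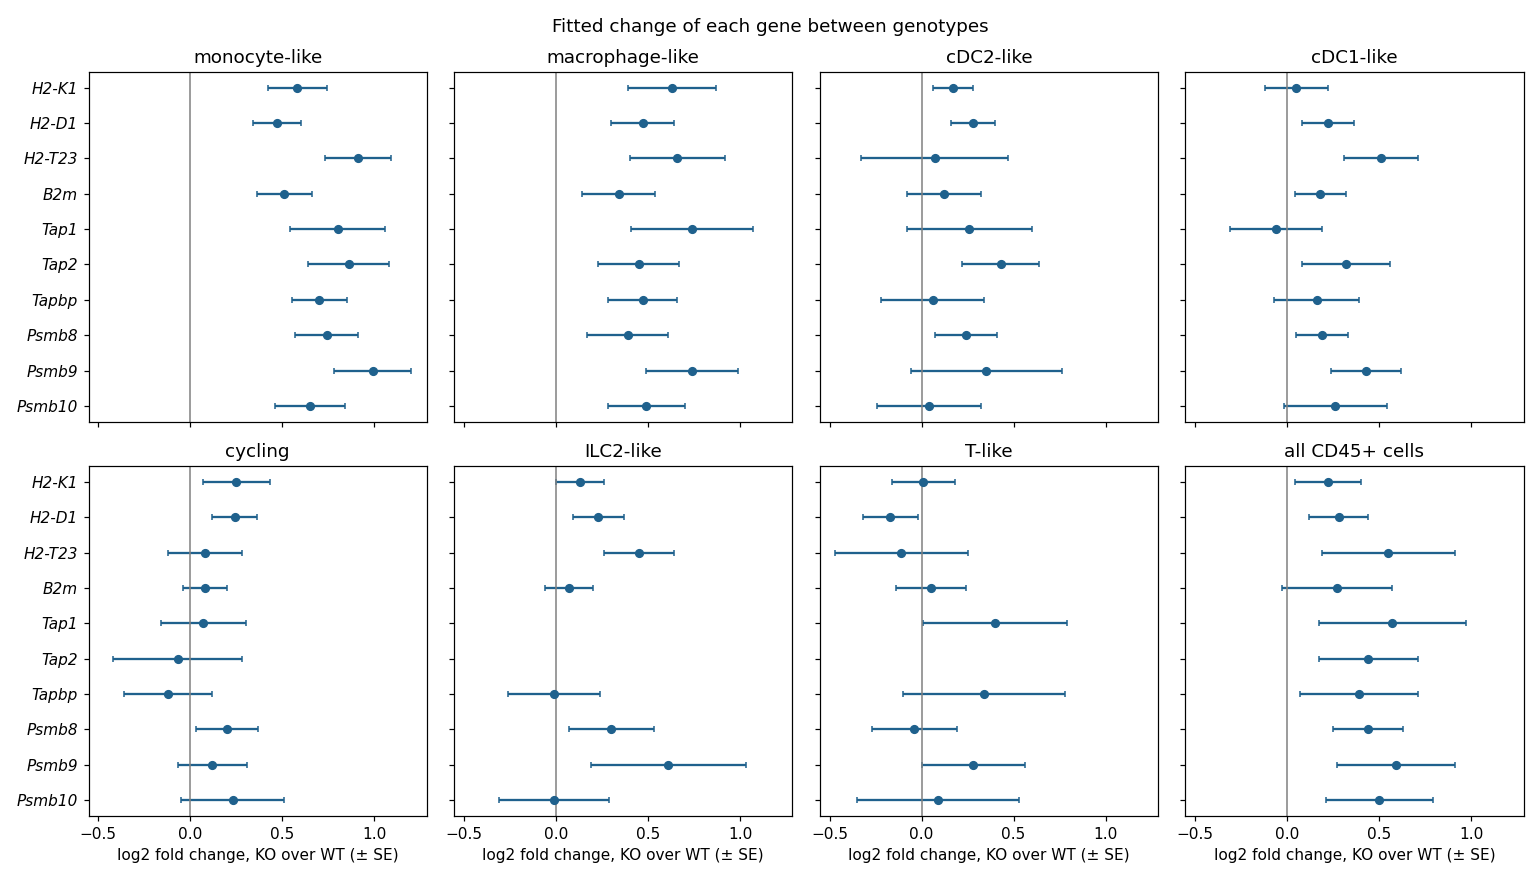
Log2 fold change, KO over WT, with its standard error, for each of the 10 genes in 7 lineages and in all CD45+ cells summed. In monocyte-like cells the 10 folds lie between 0.47 and 0.99, and in T-like cells the 9 tested folds lie on both sides of 0.

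Over all CD45+ cells, where the makeup of each animal also counts, 10 of 10 genes had a higher KO mean with a median log2 fold of 0.44, and none was called (0.0393% of all genes). Psmb8 had 631, 461, 390.4, 502 and 760.4 TMM-scaled CPM in KO1 to KO5, against 528, 389, 413, 369 and 320.3 in WT1 to WT5. It averaged 549 ± 147 CPM in KO animals and 404 ± 77.4 in WT animals (SD, n = 5 each), with a log2 fold of 0.44 ± 0.19 and an adjusted p of 0.694. H2-D1 had 1809, 1600.5, 1482.5, 1411 and 2412 CPM in KO1 to KO5, against 1825, 1235, 1329, 1340.1 and 1439 in WT1 to WT5, or 1743 ± 403 CPM in KO and 1433 ± 231 CPM in WT animals. Psmb9 had 327, 229.5, 154, 239.9 and 509 CPM in KO1 to KO5, against 299, 177, 199, 179 and 119 in WT1 to WT5. Its means were 292 ± 136 CPM in KO and 195 ± 65.3 CPM in WT animals. KO and WT animals overlapped for every one of the 10 genes. KO3, the KO animal with 2 monocyte-like cells, lowered the KO mean: without it 4 genes had unadjusted p under 0.05 in place of 1, with a median of 0.57. Without WT1 there were 8, with a median of 0.64. Over all genes tested the counts were 837 of 10346 without KO3, 878 of 10264 without WT1 and 689 of 10175 with every animal. Without KO5 the median was 0.21 and 9 of 10 were positive.

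Neutrophil-like cells reached 10 cells in 2 KO animals only (KO1 with 68 cells and KO5 with 50), so their fit was added later and rests on those. B2m had 5745 and 4708 plain CPM in KO1 and KO5, against 4251, 2664.5, 1524, 1325 and 1991 in WT1 to WT5. On this scale WT1, with 317 cells, was the WT animal closest to the KO animals, and WT3 and WT4 had 13 and 12 cells. Psmb8 had 566 and 429.95 CPM in KO1 and KO5, against 391, 208, 109, 0 and 109.8 in WT1 to WT5, where the 0 of WT4 stands for no UMI. Psmb9 had 394 and 461 CPM in KO, against 276, 119, 109, 55.2 and 78.4 in WT animals. KO animals stood wholly above WT animals for 7 of the 10 genes on plain CPM, but for 0 on TMM-scaled CPM. The share of all genes was not taken on either scale. On TMM-scaled CPM the highest WT animal had 9406 CPM of B2m (KO 6992 and 8463) and 865 of Psmb8 (KO 638 and 833). For Psmb9 it had 612 CPM (KO 581 and 685). All 9 genes tested (not Psmb10) had positive log2 folds between 0.90 and 1.62, none was called (0.0562% of all 1779 genes tested) and the lowest adjusted p was 0.475. The summed type I interferon response genes were at 28742 and 34060 plain CPM in neutrophil-like cells of KO1 and KO5, against 22103, 9735, 707, 221 and 4014 CPM in WT1 to WT5, and their part in the result was not tested.

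Whether the genotype changed the genes more in one lineage than in another was tested directly. The KO-over-WT fold was larger in monocyte-like than in cDC2-like cells for 10 of 10 genes (median difference 0.48 log2, 4 KO and 5 WT animals), but none passed (0% of 6433 genes tested). H2-T23 had the largest difference there, 0.75 ± 0.31 (edgeR adjusted p = 1). Macrophage-like against cDC2-like cells gave a median difference of 0.37 with 0 called (0% of 6790 genes), and macrophage-like against ILC2-like cells 0.47, beside 0.11 over all genes, with 0 called (0% of 5628 genes). At unadjusted p under 0.05 the 3 tests had 5, 3 and 3 of the 10 genes, and 295, 252 and 274 of all genes.

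Genes around the 10 were read from lists. Of 13 other class I genes, 10 were tested in monocyte-like cells, with 8 positive and none called. They included Psme1 (log2 0.73 ± 0.15, adjusted p = 0.113) and Psme2 (0.67 ± 0.18, adjusted p = 0.165), the PA28 proteasome activator subunits. The constitutive catalytic subunits showed no such median: in monocyte-like cells 2 of 3 were positive with a median of 0.08, and none was called in any lineage (lowest p for Psmb5 in cycling cells, 0.28 ± 0.19, and for Psmb7 in macrophage-like cells, 0.29 ± 0.21). Of 12 shared proteasome core genes, 12 were positive in monocyte-like cells with a median of 0.22 and none called, and the lowest p in any lineage were those of Pomp, a proteasome assembly factor, in ILC2-like cells (0.49 ± 0.20) and Psma7 in cycling cells (0.33 ± 0.15). Of the type I interferon response genes 13 were tested in monocyte-like cells, with 13 positive, a median of 0.67 and none called, for example Oas3 (0.88 ± 0.23) and Oas1a (0.86 ± 0.22). Of the interferon-gamma response genes 10 were tested, with 10 positive, a median of 0.73 and none called, among them Gbp5 (1.08 ± 0.25), a guanylate-binding protein. Interferon ligands and receptors had 2 of 7 positive in monocyte-like cells (median -0.08). Their lowest p were those of Ifngr1, an interferon-gamma receptor chain, in T-like cells (-0.66 ± 0.28) and of the kinase Tyk2 in macrophage-like cells (0.62 ± 0.24). Of the receptors that read class I molecules, Klrd1 in cDC1-like cells (-0.65 ± 0.23) and Pirb in macrophage-like cells (0.36 ± 0.18) had the lowest p, and none was called.

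The exchange of proteasome subunits was followed as the UMIs of each immunoproteasome subunit over those of its constitutive counterpart, a quantity that does not depend on the scaling of the libraries; its tests were added after the data had been seen. Psmb8 over Psmb5 averaged 6.35 ± 1.61 in migratory DC-like (n = 5) and 4.61 ± 1.03 in cDC1-like cells (n = 9), against 2.43 ± 0.516 in cDC2-like, 2.54 ± 0.574 in monocyte-like and 1.6 ± 0.503 in macrophage-like cells. T-like cells had 3.74 ± 1.86. Psmb9 over Psmb6 was 2.24 ± 0.33 in cDC1-like cells, against 0.987 ± 0.433 in cDC2-like and 0.713 ± 0.278 in macrophage-like cells. This ratio was 1.93 ± 1.26 in T-like, 1.72 ± 0.472 in migratory DC-like and 1.5 ± 0.688 in monocyte-like cells. Psmb10 over Psmb7 had another order, with 2.16 ± 0.573 in monocyte-like, 1.63 ± 0.722 in cDC1-like and 0.854 ± 0.159 in cycling cells. Neutrophil-like ratios rested on few UMIs and varied by more than their mean for Psmb8 over Psmb5 (4.33 ± 4.74). Their mean for Psmb9 over Psmb6 was 5.53 ± 5.38 (n = 5), from 2 to 22 Psmb6 UMIs in an animal. KO5 and WT4 had 44 and 1 Psmb9 UMIs but 0 of Psmb6, so they gave no ratio. Though the highest mean in number, it does not rank these cells.

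Between genotypes, Psmb9 over Psmb6 in monocyte-like cells was 1.63, 2.27, 2.06 and 2.61 in KO1, KO2, KO4 and KO5, against 1.39, 0.639, 0.964, 1.09 and 0.854 in WT1 to WT5. The groups did not overlap, and the exact permutation test gave p = 0.0159 (adjusted p = 0.167 over 21 tests). In macrophage-like cells the same ratio averaged 0.892 ± 0.299 in KO animals and 0.534 ± 0.0679 in WT animals (exact p = 0.00794, the smallest that 5 against 5 animals allow, adjusted p = 0.167). None of the 21 comparisons passed after adjustment.

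**Figure D4:**
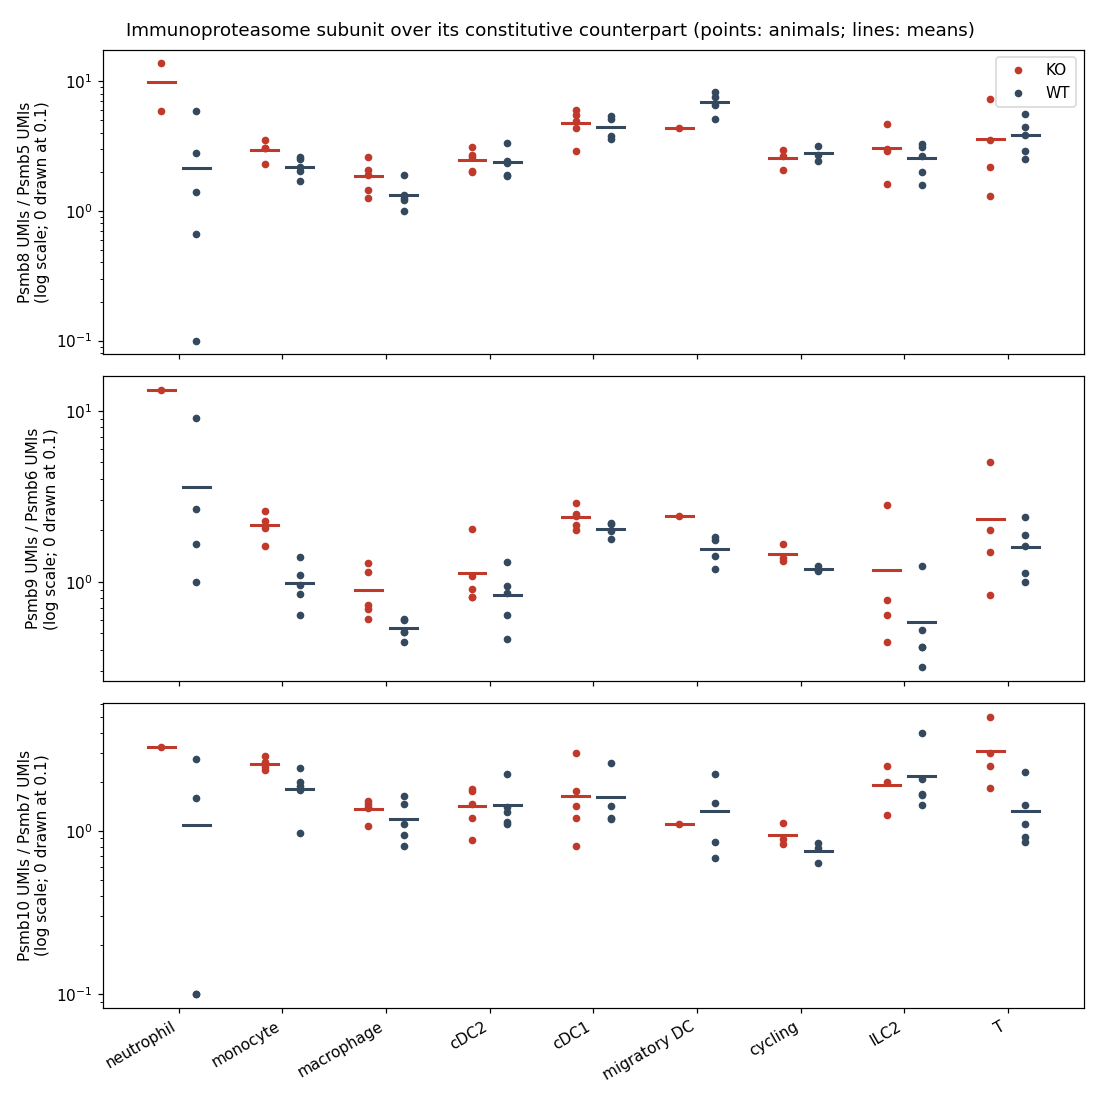
UMIs of each immunoproteasome subunit over UMIs of its constitutive counterpart (log axis) in 9 lineages, 1 point per animal, KO left of WT, with a line at each mean. Psmb8 over Psmb5 is 4.61 in cDC1-like cells and 1.6 in macrophage-like cells.

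Over animals, the class I genes were positively correlated with the interferon response level of the same cells, but few relations passed by rank. The level was the summed TMM-scaled CPM of the type I interferon response list, which holds none of the 10 genes. In monocyte-like cells it was 11164, 3082, 8237 and 12531 CPM in KO1, KO2, KO4 and KO5, against 6061, 6773, 1967, 4853 and 3098 CPM in WT1 to WT5, so the genotypes overlapped. KO1, KO4 and KO5 had the highest levels, and the KO means of the genes were higher too. Genotype and interferon level thus cannot be told apart in these relations. Tap1 had the closest relation in monocyte-like cells (Pearson r = 0.93, exact permutation p = 0.000452, adjusted p = 0.0054; Spearman rho = 0.92, adjusted p = 0.0262; n = 9 animals). H2-T23 had the closest in macrophage-like cells (r = 0.92, permutation p = 0.00054, adjusted p = 0.0054; rho = 0.72, adjusted p = 0.0954; n = 10). All 20 relations (10 genes in 2 lineages) had positive r, from 0.52 to 0.93. By Pearson's r 14 of 20 passed after adjustment, and by Spearman's rho 1 of 20, Tap1 in monocyte-like cells. Level and gene share the TMM factor of their sum. On plain CPM 11 of 20 passed by Pearson's r and 2 by Spearman's rho, and H2-D1 in monocyte-like cells had r = 0.57 in place of 0.76. In monocyte-like cells H2-K1 (r = 0.66), Tapbp (0.67) and Psmb10 (0.60) did not pass, and in macrophage-like cells H2-K1 (0.57), H2-D1 (0.52) and Tap2 (0.66) did not.

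Without the 2 animals farthest from the median interferon level, KO1 and KO5 in both lineages, 7 monocyte-like and 8 macrophage-like sums remained. Of the 20 relations 0 passed. Some r hardly moved: Tap1 had 0.93 in monocyte-like cells (adjusted p = 0.0635) and 0.83 in macrophage-like cells, where Psmb8 had 0.85, Tapbp 0.80 and Psmb10 0.79. Others fell, and in monocyte-like cells H2-D1 had r = 0.17 in place of 0.76 and H2-T23 0.43 in place of 0.75, so these r depended on those 2 animals. KO1 and KO5 had the highest levels in both lineages, so leaving them out also narrowed the range of the level. In macrophage-like cells H2-K1 (r = -0.25) and H2-D1 (r = -0.46), which had not passed, changed sign. No r is given within a genotype, since neither has 6 animals.

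**Figure D5:**
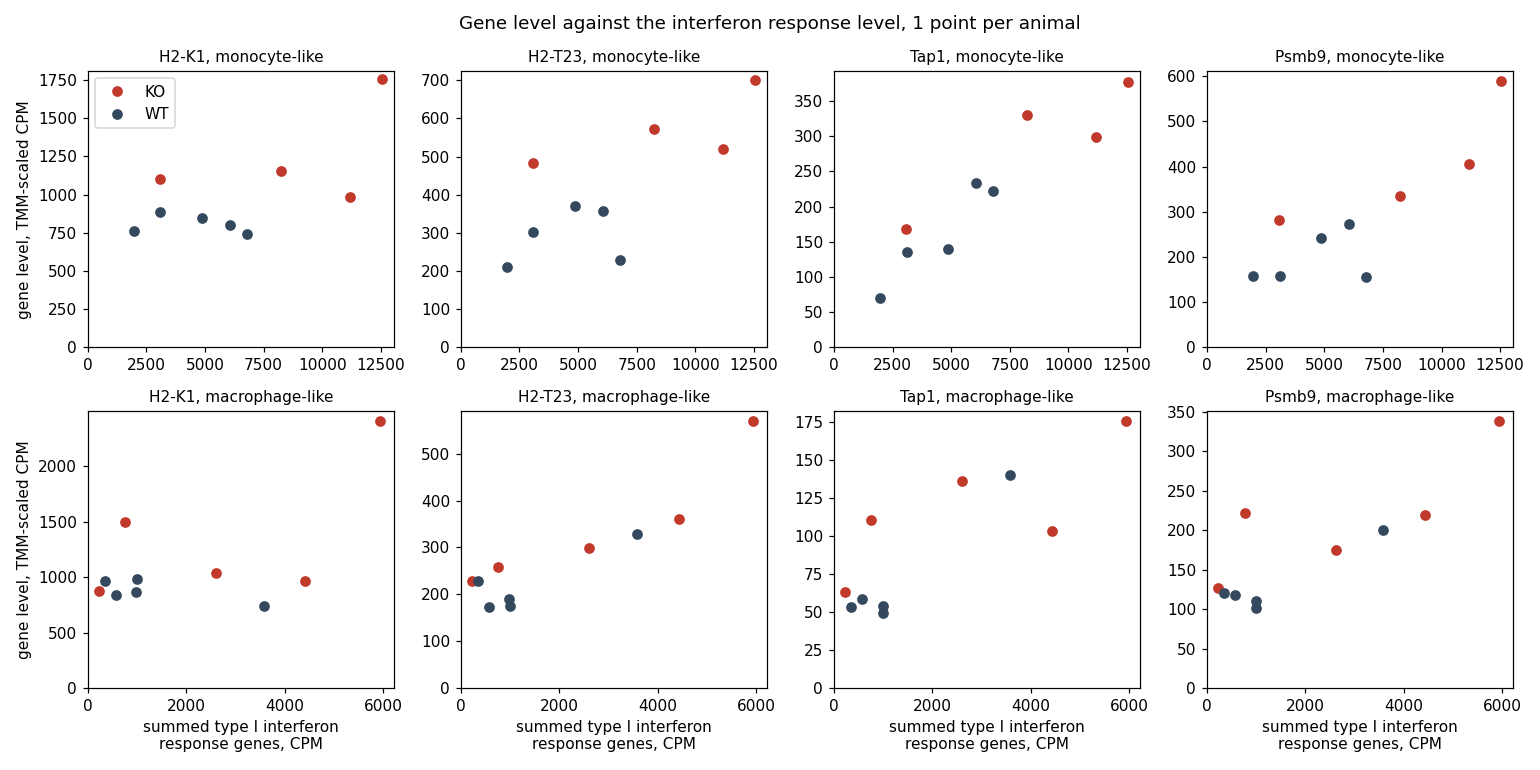
TMM-scaled CPM of H2-K1, H2-T23, Tap1 and Psmb9 against the summed type I interferon response genes of the same cells (CPM), 1 point per animal, monocyte-like cells above and macrophage-like cells below, coloured by genotype. KO5 has the highest interferon level in both lineages (12531 and 5938 CPM), and Tap1 in monocyte-like cells follows it most closely (r = 0.93).

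Across the 74 sums of animals and lineages, which share depth and lineage makeup, the genes differed in how closely they followed each other. H2-K1 followed H2-D1 (r = 0.79) and H2-D1 followed B2m (r = 0.84), while H2-K1 and Psmb9 had r = -0.07. H2-T23 followed Tapbp (r = 0.77) and Tap2 (0.76), Tap1 followed Psmb8 (0.77), and Psmb8 followed Psmb9 (0.75). Without the neutrophil-like sums (67 sums), Psmb8 and Psmb9 had r = 0.86 and H2-K1 and Psmb9 had r = -0.36. No grouping of the genes was computed. Among 5502 genes with a mean of at least 20 CPM, those most like H2-K1 were H2-Q7 (0.80), Il2ra (0.80) and H2-Q6 (0.75), of which the H2-Q genes are near-identical class I copies. Those most like B2m were Herc6 (0.81), Ddx60 (0.80) and Ddx58 (0.77). Tap1 was most like Jpt1 (0.83), Dtx3l (0.83) and Txndc9 (0.82), and Psmb8 most like Psme1 (0.88), Arf5 (0.86) and Ube2n (0.84). These correlations are descriptions and carry no test.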

How the data were processed

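The authors deposited a table of UMI counts for 32285 genes and 6054 cells, with genotype and hashtag in the cell names. Cell Ranger 6.0.1, R 4.0.5 and mm10 are named in the submitters' processing notes. Every cell had at least 1000 UMIs and at most 9.99% mitochondrial UMIs. Other filters were not given in the sources used here. The gene members and gene lists were chosen with earlier results of these data known.

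Cells were clustered with scanpy 1.11.5 (2000 variable genes, 30 principal components, 15 neighbours, Leiden resolution 3) without 49 genes, which included the members, and the 47 clusters were named from 166 markers in 20 lists. A doublet caller marked 3 cells (0.0496%), so it did not work and no doublets were removed. UMI counts were summed per animal and lineage where an animal had at least 10 cells. Sums were tested with edgeR 4.0.16 (quasi-likelihood, robust dispersion, TMM, its default filter on low counts), with Benjamini-Hochberg adjustment over all genes and a threshold of 0.05. Genotypes were compared with at least 3 animals each. Levels between lineages needed 3 animals over both genotypes, which let neutrophil-like cells in. DESeq2 1.42.0 was an alternative, and the edgeR test was tested on simulated data. Exact permutation tests used scipy 1.17.1, with 100000 permutations for relations over 10 animals. Named are the 10 members in every lineage, the 3 with the lowest p in each genotype comparison in full, and the 2 genes of each other list with the lowest p in any lineage. One gene that this rule names is not reported here. Per-animal totals ranged from 1805883 to 5666994 UMIs. TMM-scaled CPM were used between genotypes, apart from the values of neutrophil-like animals, and plain CPM between lineages. Each animal is a replicate. UMIs sit at 3′ ends with no length correction, so levels of different genes were not compared.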

Additional observations from a re-analysis of the deposited data

Results flagged for a closer look

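Of 140 groups of 4 to 10 animals examined, 12 held an animal far from the others of its genotype, involving 7 of the 10 genes. Chance flags about 1 in 20 such groups. WT1 was the animal in 11 of the 12, each time as the highest. In cDC2-like cells (55 cells of WT1) its TMM-scaled CPM were 1753 for B2m (other WT animals 1073 to 1207), 488 for H2-T23 (174 to 223), 249 for Psmb10 (107 to 136), 654 for Psmb8 (420.1 to 486), 192 for Tap1 (65.8 to 80.5) and 345 for Tapbp (135 to 165). In macrophage-like cells (60 cells) WT1 had 200 CPM of Psmb9 (102 to 119.98), 140.3 of Tap1 (49.1 to 58.7) and 275 of Tapbp (165 to 193). In T-like cells (30 cells) it had 589 CPM of H2-T23 (205 to 267), and in neutrophil-like cells (317 cells) 276 plain CPM of Psmb9 (55.2 to 119). WT1 also had the highest type I interferon level among WT macrophage-like cells, 3579 CPM, and the part of that level was not tested. The remaining animal was KO3, whose 17 cDC1-like cells had 390 CPM of Psmb9, against 755 to 878 in the other KO animals.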

How the results depend on the processing

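No paired analysis was possible because each animal had its own hashtag and the numbers of KO and WT animals carry no pairing. The count of genes called between genotypes in monocyte-like cells was 0 with edgeR (0.0511% of all genes called), 4 with DESeq2 (0.587%) and 8 when every gene with at least 1 UMI was tested (0.92%), and 0 to 5 when 1 animal was left out, with 5 called without KO2 (1.15%). The cause was not tested. The count of relations with the interferon level past the threshold by Pearson's r was 14, and 11 on plain CPM. It was 0 without the 2 animals farthest from the median, where fewer animals remain. Among the 3 genes with the lowest p of each genotype comparison, directions turned in 4 cases, none past the threshold: with lineages gated by marker UMIs, Tap2 in cDC2-like cells had log2 0 and Tap1 in T-like cells -0.11; with well 1 alone, Psmb8 in cycling cells had -0.15; and leaving out 1 animal at a time gave H2-K1 in cycling cells -0.02 (without KO3) to 0.36 (without KO4). Over all 10 genes more turned: 6 of 10 were positive in cDC2-like cells without KO5 or with gating, and 4 of 10 in T-like cells without KO5. Without the 2 animals farthest from the median interferon level, r of H2-K1 (-0.25) and H2-D1 (-0.46) in macrophage-like cells turned. The causes were not tested. Of the 56 calls between lineages, at most 12 were lost under any alternative, and 1, H2-K1 in neutrophil-like cells without TMM factors, turned. Calls were also gained, 7 with neutrophil-like cells left out and 8 without TMM factors. Well 1 alone could not be run in cDC1-like cells, well 2 alone and at least 20 cells not in ILC2-like cells, and none of these 3 in T-like cells, since too few KO animals remained. Depth limits Tap2 (2333 UMIs in all cells) and the neutrophil-like cells (median 1817 UMIs per cell) most.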
